A study of Mus musculus with 18 samples.

Results

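The Piwi pathway genes described here were 10 genes of the germ line, *Piwil1*, *Piwil2*, *Piwil4*, *Mael*, *Mov10l1*, *Tdrd1*, *Tdrd9*, *Tdrkh*, *Pld6* and *Gtsf1*. They were chosen by gene symbol from the 28252 genes of the deposited TPM table, by a rule that uses no measured value, although the list was drawn up with earlier results of these data known. All 10 were found there and, by Ensembl identifier, in the table of read counts. RNA was sequenced from oocytes of C57Bl/6j x CBA/J mice in 18 libraries, 3 in each of 6 groups. Oocytes from primordial follicles and oocytes from primary follicles were isolated by laser capture microdissection (LCM) of sectioned ovaries, and the RNA of the captured oocytes was pooled by stage. These ovaries had been fixed in paraformaldehyde, embedded in paraffin and stained, and the number of captured oocytes differed between the groups. In the *in vivo* groups these ovaries came from 14-day-old mice and were not cultured, and in the *in vitro* groups ovaries of 7-day-old mice were cultured for 7 days in medium with 10% fetal bovine serum and follicle stimulating hormone. Metaphase II (MII) oocytes were taken as 10 oocytes a library, *in vivo* from superovulated adult mice and *in vitro* from follicles of cultured ovaries that were grown for another 12 days in alginate and then induced to ovulate with human chorionic gonadotropin. The labels do not tie replicates to separate animals or cultures, so that p-values measure only the spread between these libraries.

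Piwi proteins are Argonautes that carry small RNAs, the piRNAs, and silence transposable elements in germ cells. Long precursor transcripts are cut at the mitochondrial surface, loaded onto a Piwi protein and trimmed. They are passed to cytoplasmic granules that are held together by Tudor domain proteins, and the loaded proteins then cleave transposon transcripts or direct their silencing in the nucleus. Male mice that lack one of these genes are typically sterile, whereas female mice are typically fertile, and the mouse oocyte is known to use small interfering RNAs against transposons as well.

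The LCM libraries held 15149564 to 29205503 reads on genes and the MII libraries 7334817 to 9978830 reads. Genes with a read numbered 6048 to 13755 in LCM and 14512 to 18239 in MII libraries. The fewest were in oocytes from primary follicles *in vivo*, replicate 1, which had the highest summed level of the 10 genes (2397 TPM). A floor of 3 reads in a library was 0.093 to 0.216 CPM (reads of a gene scaled by the library's size after TMM normalization) in LCM and 0.284 to 0.360 CPM in MII libraries, and such floors cover counting error only, because amplified reads are not independent molecules. LCM RNA came from fixed, paraffin-embedded sections and was amplified and captured with exome probes, whereas MII RNA went through Smart-seq II. A difference of MII from LCM libraries could thus be one of stage or of preparation, which cannot be told apart, and only levels are given side by side. TPM is a level scaled for gene length and library size and is used for comparisons between genes. In RNA of pooled cells, fewer oocytes and less RNA per oocyte cannot be told apart. In markers of other cells, 1 library stood apart: in oocytes from primary follicles *in vivo*, replicate 2, the sum of 14 markers of stroma, theca, vessels and blood was 34572 CPM, against 1290 to 8276 CPM in the other 11 LCM libraries and 90.5 to 261 CPM in MII libraries. Without it, edgeR called 0 of the 10 genes in each of the 5 comparisons of LCM libraries, as with it. In every LCM library the sum of these 14 markers was above that of 15 oocyte markers, which was 260 to 1512 CPM over the LCM libraries. In every MII library it was below the oocyte sum of 8892 to 16825 CPM. The share of each cell type was not tested. Of the 120 values that the 10 genes had in the 12 LCM libraries, 29 were 0 reads and 87 were above 3 reads, and of the 60 values in the MII libraries, 10 were 0 and 50 were above 3 reads.

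All 10 genes are protein coding, and their positions below are those of GENCODE M21 on GRCm38. *Piwil1* lies on chromosome 5 (128702524 to 128755474, plus strand), *Piwil2* on chromosome 14 (70372477 to 70429383, minus strand) and *Piwil4* on chromosome 9 (14696230 to 14740733, minus strand). *Mael* lies on chromosome 1 (166201201 to 166238747, minus strand), *Tdrkh* on chromosome 3 (94413273 to 94434668, plus strand) and *Pld6*, the shortest with at most 2 exons, on chromosome 11 (59783897 to 59787645, minus strand). *Tdrd9*, with up to 36 exons, lies on chromosome 12 (111971559 to 112068854, plus strand), *Mov10l1* on chromosome 15 (88982909 to 89055152, plus strand), *Gtsf1* on the same chromosome (103402405 to 103430470, minus strand) and *Tdrd1* on chromosome 19 (56826209 to 56870012, plus strand). A gene on the opposite strand overlaps *Tdrkh* (*Oaz3*), *Tdrd9* (*Rd3l*), *Piwil1* and *Piwil4*, and the counting is not stated to have used strand, so reads of these 4 genes could be shared with their partners.

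The promoters are shown because the 10 genes are used together in germ cells, while the levels of several differed between LCM and MII libraries. A reader can compare the start sites of a gene read in MII oocytes (*Piwil1*) with those of 3 genes with high levels in small follicles (*Mael*, *Tdrd9*, *Gtsf1*). Stage and preparation cannot be told apart in this contrast. RefSeq promoters on GRCm38.p6, from 250 bases before to 50 bases after a start site, were matched by symbol for 9 of the 10 genes (13 start sites), all but *Piwil2*. Each was searched on both strands for CACGTG (the E-box of Max, Mga and Myc type factors), GCGGGAA (an E2F type motif) and TAATTG (a homeobox motif bound by Nobox). Capitals mark the matches. The sequences are those of *Piwil1* at chr5:128735996-128736295 (plus strand), which starts within the longest GENCODE model of the gene, *Mael* at chr1:166238695-166238994 (minus strand), *Tdrd9* at chr12:111971309-111971608 (plus strand) and *Gtsf1* at chr15:103430378-103430677 (minus strand), each written 5′ to 3′.
Piwil1: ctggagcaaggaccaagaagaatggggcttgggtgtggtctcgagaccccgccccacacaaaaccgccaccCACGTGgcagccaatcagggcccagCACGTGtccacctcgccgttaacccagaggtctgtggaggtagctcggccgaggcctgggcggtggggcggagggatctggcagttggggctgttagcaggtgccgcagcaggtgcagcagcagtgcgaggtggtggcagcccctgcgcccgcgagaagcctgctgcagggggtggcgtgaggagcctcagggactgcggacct
Mael: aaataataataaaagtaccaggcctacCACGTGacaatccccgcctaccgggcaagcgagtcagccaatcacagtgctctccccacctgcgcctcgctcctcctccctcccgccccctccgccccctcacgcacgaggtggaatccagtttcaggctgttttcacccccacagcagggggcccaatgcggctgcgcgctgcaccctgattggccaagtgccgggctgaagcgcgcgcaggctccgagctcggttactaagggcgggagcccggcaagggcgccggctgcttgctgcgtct
Tdrd9: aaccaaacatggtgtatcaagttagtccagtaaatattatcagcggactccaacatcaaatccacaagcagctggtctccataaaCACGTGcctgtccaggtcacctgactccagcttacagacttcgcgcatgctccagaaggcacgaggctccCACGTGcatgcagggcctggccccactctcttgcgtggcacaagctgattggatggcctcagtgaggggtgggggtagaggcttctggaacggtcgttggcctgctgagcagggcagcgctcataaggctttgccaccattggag
Gtsf1: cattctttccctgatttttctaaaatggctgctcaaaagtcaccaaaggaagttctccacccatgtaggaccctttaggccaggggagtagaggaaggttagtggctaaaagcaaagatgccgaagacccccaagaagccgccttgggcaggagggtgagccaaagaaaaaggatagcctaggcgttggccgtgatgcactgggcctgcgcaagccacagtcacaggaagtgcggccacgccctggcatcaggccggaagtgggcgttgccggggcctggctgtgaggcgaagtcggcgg
CACGTG occurred in 7 of the 13 promoters, from 6 of the 9 genes: 2 matches each in *Piwil1* and *Tdrd9*, and 1 each in *Mael*, *Mov10l1*, 1 of the *Pld6* promoters and the 2 overlapping *Tdrd1* promoters. Of all 32817 promoters of the same length, 7.15% held it. GCGGGAA was in none of the 13 and in 4.6% of all promoters, and TAATTG occurred 2 times in the *Tdrkh* promoter, in no other of the 13 and in 8% of all promoters. The *Gtsf1* promoter had none of these letters. The 13 promoters held 0 to 25 CpG dinucleotides (*Piwil1* 18, *Mael* 24, *Tdrd9* 10, *Gtsf1* 13), against a median of 7 over all promoters. The motifs were matched by letters only, and no binding was measured.

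*Piwil1*, the Argonaute known as Miwi, was read almost only in MII oocytes. It had 0 reads in all 6 libraries of oocytes from primordial follicles. Primary follicles gave 48, 0 and 0 reads *in vivo* and 5, 0 and 2 reads *in vitro*. In MII oocytes it had 610, 511 and 769 reads *in vivo*, at 39.4, 39.3 and 52.2 TPM, and 1137, 1097 and 912 reads *in vitro*, at 61.8, 71.5 and 64.2 TPM. Each *in vitro* library was above each *in vivo* library, with means of 65.8 ± 5.06 and 43.6 ± 7.39 TPM (SD, n = 3). The fitted log2 fold change of 0.66 (SE 0.32) was not called by edgeR's quasi-likelihood test (adjusted p = 0.502), and its adjusted p ranged from 0.274 to 0.728 over the alternatives. The SE of edgeR fold changes, here and below, were computed from the test's F statistic. *Piwil1* was the gene with the highest median TPM of the 10 in both MII groups, where it held 24.5% to 59.8% of their summed TPM.

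*Piwil2*, the Argonaute known as Mili, had the opposite distribution over LCM and MII libraries *in vivo*. *In vitro*, its range in oocytes from primordial follicles overlapped that in MII oocytes (0 to 0.698 TPM). In oocytes from primordial follicles it had 1787, 2224 and 3143 reads *in vivo* (49.2, 59.6 and 80.6 TPM) and 50, 12 and 7 reads *in vitro* (2.004, 0.267 and 0.206 TPM). All 3 *in vivo* libraries were thus well above all 3 *in vitro* libraries, with means of 63.1 ± 16.02 and 0.826 ± 1.02 TPM (SD, n = 3). The log2 fold change was -6.20 (SE 3.48) and not called by edgeR (adjusted p = 0.452). DESeq2 with its defaults called it on the same counts (log2 fold change -5.94, adjusted p = 0.0184), beside 9.3% of the genes to which it gave an adjusted p. Over all alternatives the adjusted p of this comparison ranged from 0.0138 to 0.946.

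In oocytes from primary follicles the *Piwil2* groups overlapped, with 3, 2540 and 2121 reads *in vivo* and 1270, 46 and 114 reads *in vitro* (log2 fold change -2.21, SE 2.90, edgeR adjusted p = 0.940). One *in vivo* library, replicate 1, was at the floor while the other two were at 65.8 and 78.4 TPM. In MII oocytes *Piwil2* had 0 reads in the 3 *in vivo* libraries and 15, 13 and 0 reads *in vitro*. The mean of 0.989 CPM *in vitro* was at least 2.89-fold higher than the floor of 3 reads per library *in vivo*, and the change was not called by edgeR (unadjusted p = 0.0402, adjusted p = 0.469).

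*Piwil4*, the nuclear Argonaute known as Miwi2, which acts in fetal male germ cells, had 14 reads in 1 library of oocytes from primordial follicles *in vivo* (0.369 TPM) and 0 reads in the other 17 libraries. No level or difference was detectable for it at this depth.

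**Figure D1:**
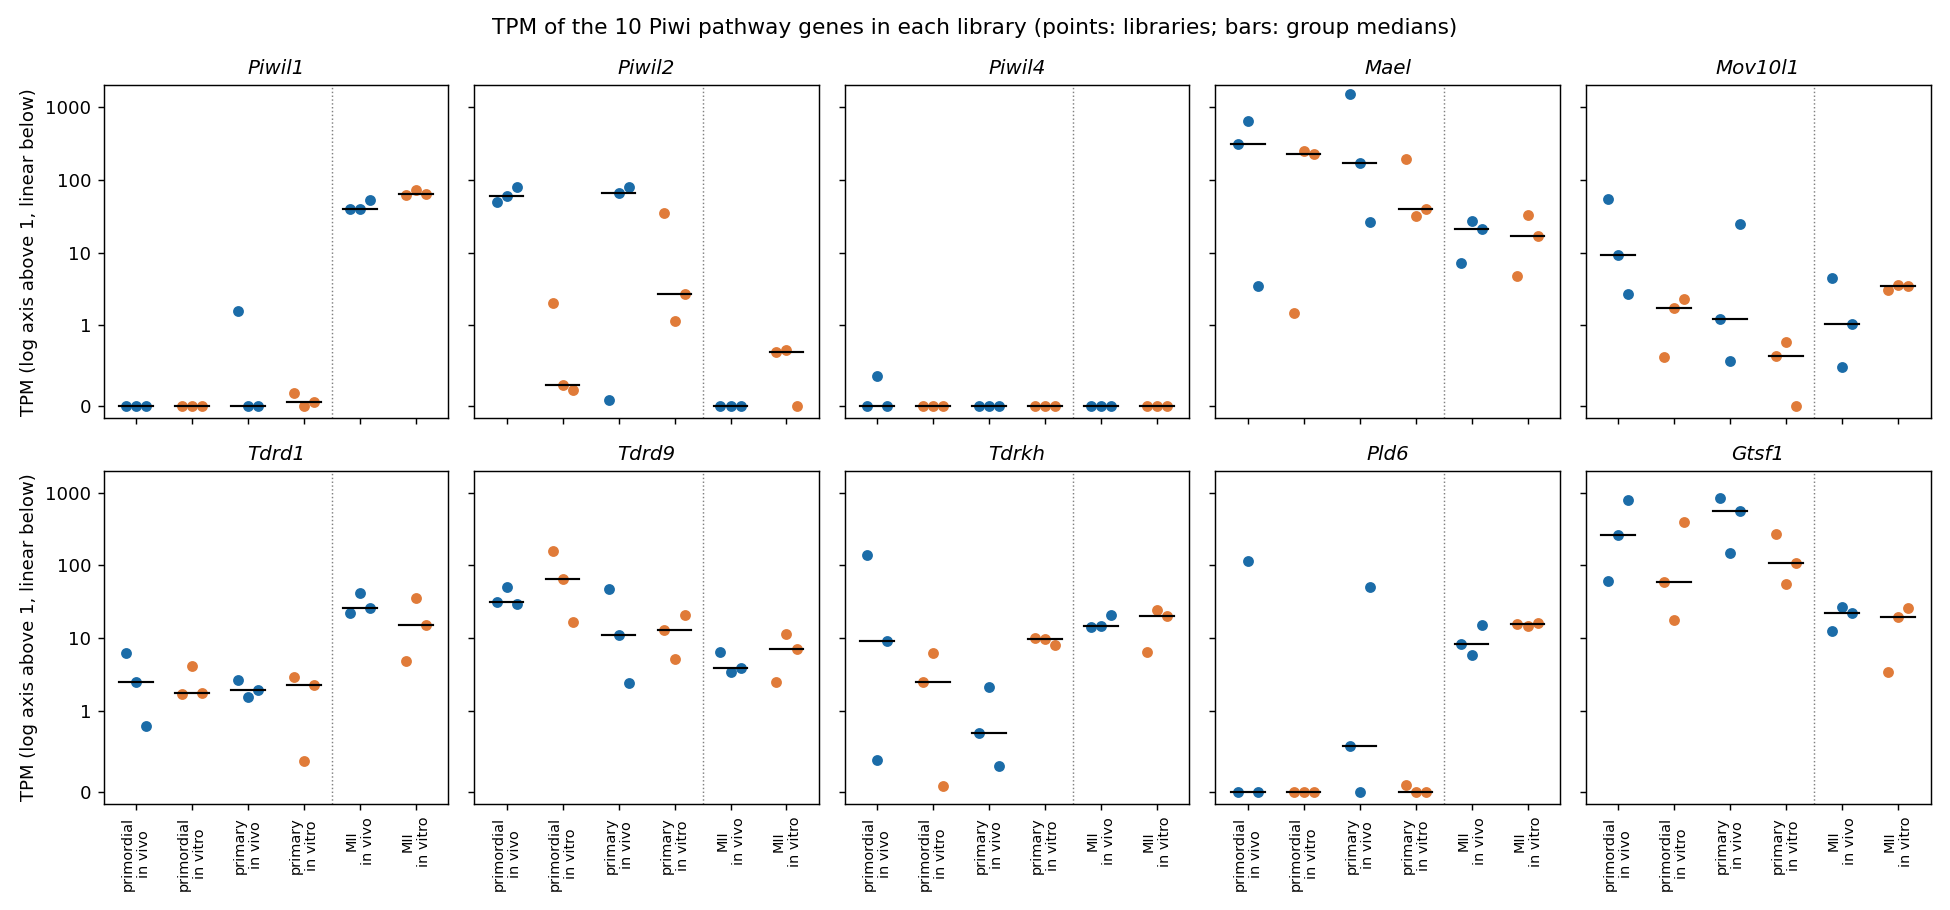
TPM (vertical, log axis above 1 and linear below) of each of the 10 genes in the 6 groups (horizontal), with 1 point per library (*in vivo* blue, *in vitro* orange), a bar at the group median and a dotted line between the LCM and MII libraries. *Piwil1* lies at 0 to 1.58 TPM left of the line and at 39.3 to 71.5 TPM right of it, and *Piwil2* at 49.2 to 80.6 TPM in primordial *in vivo* libraries and under 1 TPM in MII libraries.

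*Pld6*, the mitochondrial nuclease that cuts piRNA precursors (zucchini in the fly), was read in few LCM libraries. It had 0, 1409 and 0 reads in oocytes from primordial follicles *in vivo* and 0 reads in all 3 *in vitro* libraries. The primary libraries had 7, 0 and 458 reads *in vivo* and 1, 0 and 0 reads *in vitro*. The group means *in vivo*, 17.4 and 8.43 CPM, were at least 111-fold and 79.0-fold above the floor of 3 reads per library in the *in vitro* groups, but each rested mainly on 1 library. The unadjusted p of edgeR was 0.0149 and 0.0416, with adjusted p of 0.359 and 0.494. In MII oocytes *Pld6* was read in every library, with 53, 31 and 90 reads *in vivo* (8.49, 5.92 and 15.1 TPM) and 117, 90 and 94 reads *in vitro* (15.8, 14.5 and 16.4 TPM), in ranges that overlapped (log2 fold change 0.75, SE 0.59, edgeR adjusted p = 0.687).

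*Mov10l1*, the helicase that binds piRNA precursors and hands them to *Pld6*, had 1557, 272 and 84 reads in oocytes from primordial follicles *in vivo* and 12, 62 and 63 reads *in vitro*. The groups did not overlap in CPM or TPM (2.72 to 54.1 TPM against 0.608 to 2.34 TPM), but the *in vivo* libraries differed among themselves by more than the gap between the groups (log2 fold change -3.71, SE 3.52, edgeR adjusted p = 0.718). At the primary stage it had 36, 17 and 523 reads *in vivo* and 18, 25 and 0 reads *in vitro*, and in MII oocytes 67, 6 and 15 reads *in vivo* and 54, 53 and 48 reads *in vitro*. The MII *in vitro* libraries lay close together at 3.06 to 3.60 TPM, within the *in vivo* range of 0.481 to 4.51 TPM.

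*Tdrkh*, a Tudor protein of the mitochondrial surface that recruits the trimmer of piRNA ends, had 5931, 17 and 414 reads in oocytes from primordial follicles *in vivo* and 74, 324 and 3 reads *in vitro*. At the primary stage it had 31, 97 and 10 reads *in vivo* and 434, 454 and 404 reads *in vitro*. Here the *in vitro* libraries, at 8.18 to 10.2 TPM, were all above the *in vivo* libraries, at 0.318 to 2.16 TPM, and this was the only one of the 10 genes whose *in vitro* group lay wholly above its *in vivo* group in small follicles. The log2 fold change was 2.88 (SE 3.17) and not called by edgeR (adjusted p = 0.898). In MII oocytes the groups overlapped, with 310, 272 and 430 reads *in vivo* and 166, 535 and 407 reads *in vitro* (log2 fold change 0.02, SE 0.42).

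*Tdrd1*, the Tudor scaffold of the granules in which *Piwil2* works, was low in small follicles and higher in TPM in most MII libraries. It had 234, 97 and 33 reads in oocytes from primordial follicles *in vivo* and 44, 195 and 62 reads *in vitro*, and 101, 63 and 55 reads in oocytes from primary follicles *in vivo* and 110, 16 and 100 reads *in vitro*. These 12 libraries lay at 0.389 to 6.25 TPM. In MII oocytes it had 427, 682 and 488 reads *in vivo* (22.1, 42.0 and 26.5 TPM) and 113, 688 and 267 reads *in vitro* (4.91, 35.9 and 15.04 TPM), with overlapping groups (log2 fold change -0.76, SE 0.50, edgeR adjusted p = 0.598). *Piwil2*, its partner, and *Tdrd1* were therefore high in different library types.

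*Tdrd9*, the helicase with a Tudor domain that works with *Piwil4* in male germ cells, was read above the floor in all 18 libraries. Its reads were 1173, 1945 and 1187 in oocytes from primordial follicles *in vivo* and 4094, 3020 and 580 *in vitro*. They were 1795, 445 and 67 in oocytes from primary follicles *in vivo* and 492, 210 and 924 *in vitro*, and 124, 55 and 71 in MII oocytes *in vivo* and 57, 221 and 128 *in vitro*. The primordial *in vivo* group, at 29.7 to 50.9 TPM (37.4 ± 11.8, SD, n = 3), was the most even of the 4 LCM groups for this gene. Ranges *in vivo* and *in vitro* overlapped at each stage, and *Tdrd9* was the only gene of the 10 with a positive log2 fold change in oocytes from primordial follicles (1.24, SE 2.68, edgeR adjusted p = 0.978).

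*Mael*, the granule protein maelstrom, which acts in piRNA-directed transposon silencing, had the most reads of the 10 genes, 41959 in all, of which 41322 were in LCM libraries. It had 3670, 7754 and 45 reads in oocytes from primordial follicles *in vivo* (308, 634 and 3.52 TPM) and 12, 3660 and 2508 reads *in vitro* (1.47, 248 and 225 TPM). Each of these groups thus held 1 library with a level under 4 TPM beside others over 200 TPM. At the primary stage it had 17994, 2171 and 235 reads *in vivo* (1494, 172 and 26.5 TPM) and 2308, 420 and 545 reads *in vitro* (193, 32.1 and 39.1 TPM). In MII oocytes it had 44, 141 and 124 reads *in vivo* and 35, 199 and 94 reads *in vitro*, at 4.78 to 32.6 TPM in all. The ranges overlapped at every stage, and the log2 fold changes were -0.80 (SE 2.15), -3.39 (SE 2.34) and -0.06 (SE 0.64), with edgeR adjusted p of 1, 0.653 and 0.987.

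*Gtsf1*, a small zinc finger protein that assists Piwi proteins in cleaving their targets, was read above the floor in every library. It had 591, 2607 and 8113 reads in oocytes from primordial follicles *in vivo* (61.8, 266 and 792 TPM) and 392, 213 and 3541 reads *in vitro* (59.8, 17.99 and 396 TPM). At the primary stage it had 8199, 1520 and 3949 reads *in vivo* (849, 150 and 555 TPM) and 2563, 583 and 1197 reads *in vitro* (267, 55.5 and 107 TPM). The means were 518 ± 351 and 143 ± 110 TPM (SD, n = 3) with overlapping ranges (log2 fold change -2.37, SE 2.36, edgeR adjusted p = 0.862). In MII oocytes it had 63, 113 and 104 reads *in vivo* and 20, 97 and 119 reads *in vitro*, at 3.41 to 27.3 TPM, so all MII libraries were under all but 1 of the 12 LCM libraries. *Gtsf1* was the gene with the highest median TPM of the 10 in both groups of primary follicles, and *Mael* in both groups of primordial follicles.

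Summed over the 10 genes, the level was higher *in vivo* than *in vitro* in oocytes from primordial follicles. The sum was 651 to 1137 TPM in the 3 *in vivo* libraries (902 ± 243, SD, n = 3) and 228 to 642 TPM in the 3 *in vitro* libraries (405 ± 213), and 606 to 679 against 277 to 336 CPM, without overlap on either scale. At the primary stage it was 403 to 2397 TPM *in vivo* (1180 ± 1067) and 105 to 522 TPM *in vitro* (269 ± 222), which overlapped, whereas in CPM the ranges of 275 to 1647 and 75.7 to 234 did not. Left without one gene in turn, the sum in TPM of primordial oocytes kept its groups apart in 4 of 10 cases and overlapped without *Piwil2*, *Mael*, *Mov10l1*, *Tdrd9*, *Tdrkh* or *Gtsf1*. In CPM the groups stayed apart in 8 of 10 cases in primordial oocytes, all but those without *Mael* or *Gtsf1*, and in 9 of 10 in primary oocytes, all but that without *Piwil2*. These counts include cases that could hardly change the sums. *Piwil1* had 0 reads in primordial libraries, and *Piwil4* had 14 reads in 1 of these and 0 in primary libraries. In MII oocytes the sum was 115 to 163 TPM *in vivo* and 103 to 215 TPM *in vitro*. No test was made of these sums, since they pool genes whose own changes were not called.

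**Figure D2:**
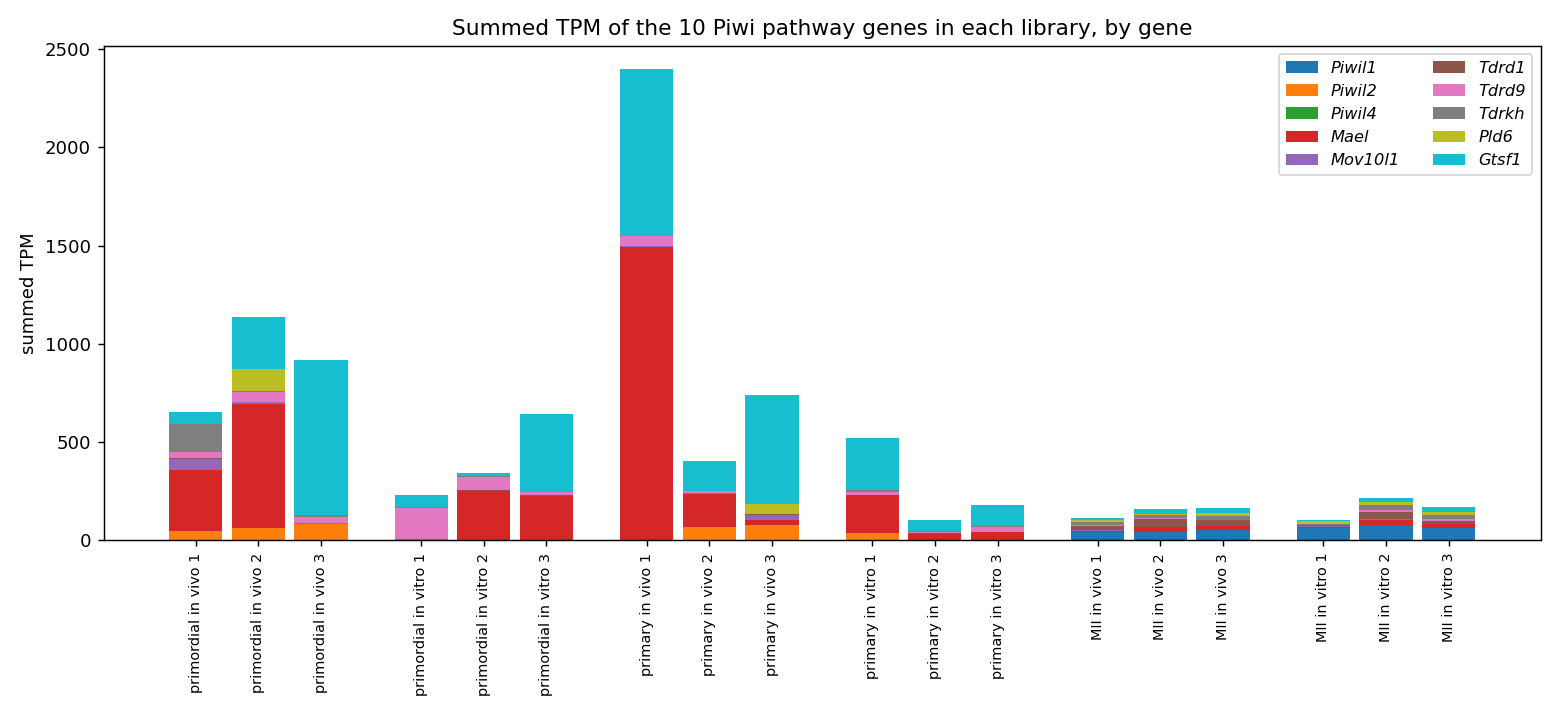
Summed TPM (vertical, linear from 0) of the 10 genes in each of the 18 libraries (horizontal), stacked by gene. *Mael* (red) and *Gtsf1* (cyan) make up most of the bar in most LCM libraries, primordial *in vivo* bars stand at 651 to 1137 TPM and primordial *in vitro* bars at 228 to 642 TPM, and MII bars are lower, with *Piwil1* (dark blue) at their base.

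To ask which of the 10 genes differed between *in vitro* and *in vivo* growth, edgeR's quasi-likelihood test was run over all genes, and calls needed both a fold change of 2 or more and a p under 0.05 after Benjamini-Hochberg adjustment. In oocytes from primordial follicles, 0 of the 10 genes were called, beside 0.0326% of the 15317 genes tested, and 1 (*Pld6*) had an unadjusted p under 0.05, beside 11.7% of all genes. DESeq2 with its defaults called 1 (*Piwil2*), beside 9.3% of the genes to which it gave an adjusted p. Of the 10 genes, 8 had a negative and 1 a positive log2 fold change, with a median of -2.55 against a median of 0 over all genes. The groups did not overlap for 2 genes, *Piwil2* and *Mov10l1*, both lower *in vitro*, whereas 6.59% of all genes tested had groups apart in either direction.

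In oocytes from primary follicles, edgeR called 0 of the 10 genes and 0% of all genes. DESeq2 called 0 of the 10, beside 3.11% of the genes to which it gave an adjusted p, and in edgeR 1 (*Pld6*) had an unadjusted p under 0.05, beside 9.66% of all genes. Again 8 log2 fold changes were negative and 1 positive, with a median of -2.29 against 0.44 over all genes. Only *Tdrkh*, higher *in vitro*, had groups that did not overlap, against 9.99% of all genes. The difference between the effects at the primary and primordial stages (interaction) was called by edgeR for 0 of the 10 genes and 0.104% of all genes, with 0 of the 10 and 11.5% of all genes at an unadjusted p under 0.05. DESeq2 called it for 0 of the 10 and 5.91% of all genes with an adjusted p.

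In MII oocytes, edgeR called 0 of the 9 genes tested (*Piwil4* was at 0) and 0.35% of the 17144 genes tested (60 genes, against 11 without *in vitro* replicate 3 and 378 without *in vivo* replicate 1), 1 (*Piwil2*) had an unadjusted p under 0.05, beside 10.2% of all genes, and DESeq2 called 0, beside 2.54% of all genes with an adjusted p. Of the 9, 6 log2 fold changes were positive and 3 negative, with a median of 0.54 against 0.04 over all genes. Only *Piwil1* had groups that did not overlap, against 16.2% of all genes.

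The spread between replicates set how far these tests could reach. edgeR estimated a biological coefficient of variation of 2.02 for the LCM and 0.726 for the MII libraries. In counts simulated from the real libraries, the changed genes were drawn from those with a mean of at least 100 reads per library. The LCM fit recovered 0% of 100 genes changed 4-fold and 0% of 100 changed 16-fold between the primary groups, and the MII fit recovered 71% and 100% of such genes. *Piwil2*, *Mov10l1*, *Pld6* and *Gtsf1* were below that mean in MII oocytes (28, 243, 475 and 516 reads over all 6 libraries), so these shares do not cover them. *Piwil1*, *Piwil4* and *Tdrd1* were below it in LCM libraries (55, 14 and 1110 reads over all 12). Counts were drawn around 1 mean per gene, and the primordial groups were not simulated. Among genes with reads in a group, the share with at least 90% of their level in 1 library was 46.9% and 54.0% in the primordial *in vivo* and *in vitro* groups, 56.4% and 27.1% in the primary groups, and 12.7% and 8.78% in the MII groups. Of the 10 genes this held for 3 of 9 with reads (primordial *in vivo*), 0 of 7 (primordial *in vitro*), 4 of 9 (primary *in vivo*), 1 of 9 (primary *in vitro*), 0 of 8 (MII *in vivo*) and 0 of 9 (MII *in vitro*).

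**Figure D3:**
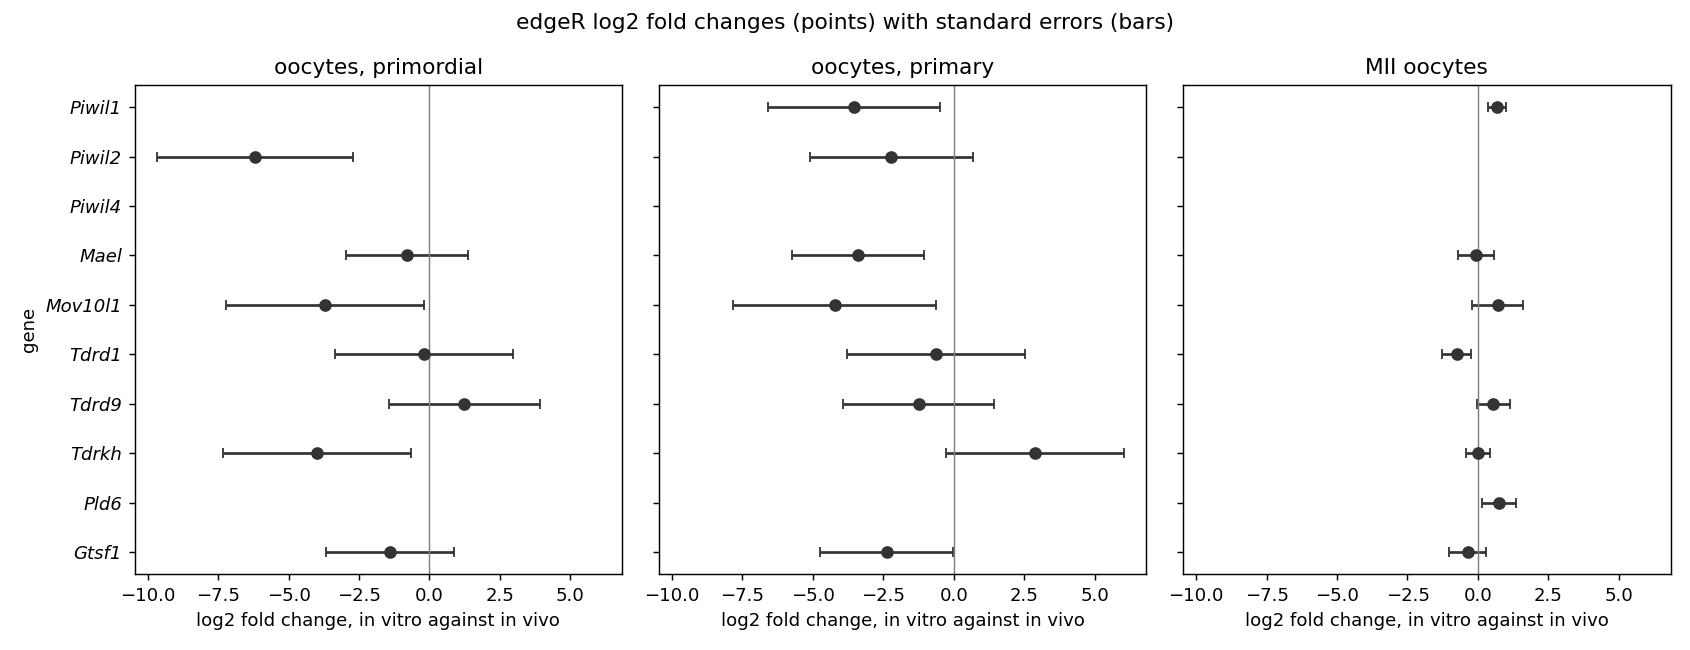
Log2 fold changes of edgeR (horizontal, positive where higher *in vitro*), with bars of 1 SE, for the genes (vertical) with a library above 3 reads in both groups, in oocytes from primordial follicles (left), oocytes from primary follicles (middle) and MII oocytes (right). The SE was computed from the F statistic of the test. The SE bars of the LCM comparisons span 2.15 to 3.61 on the log2 scale and those of MII oocytes 0.32 to 0.89.

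Between oocytes from primary and primordial follicles, 0 of the 10 genes were called by edgeR or by DESeq2 with its defaults, *in vivo* or *in vitro*. The share of all genes called by edgeR was 0.0522% *in vivo* and 0% *in vitro*, and by DESeq2, of those with an adjusted p, 6.23% and 5.15%. At an unadjusted p under 0.05 in edgeR, which 11.2% of all genes had *in vivo* and 10.9% *in vitro*, there was 1 of the 10 genes *in vivo*, *Piwil1*, whose mean of 0.934 CPM in oocytes from primary follicles was at least 7.07-fold above the floor and came from 1 library (edgeR adjusted p = 0.406), and 0 *in vitro*. *In vivo*, 0 of the 10 genes had groups apart, against 6.39% of all genes. *In vitro* this held for *Tdrkh*, at 8.18 to 10.2 TPM in oocytes from primary follicles against 0.0759 to 6.19 TPM in oocytes from primordial follicles, against 11.2% of all genes (log2 fold change 1.40, SE 3.01, edgeR adjusted p = 1). *Piwil2* had similar medians in both *in vivo* groups, 59.6 TPM in oocytes from primordial and 65.8 TPM in oocytes from primary follicles (log2 fold change -0.57, SE 2.78).

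The 6 groups of each gene were ordered by median TPM, and of the 50 pairs of neighbours in these orders, 41 overlapped and 9 did not. For *Piwil1* the order was MII *in vitro*, MII *in vivo* and then the 4 LCM groups, with a gap between each MII group and the next and overlap among the LCM groups. For *Piwil2*, primary *in vivo* and primordial *in vivo* overlapped at the top, gaps separated primordial *in vivo* from primary *in vitro*, the latter from MII *in vitro*, and primordial *in vitro* from the MII *in vivo* group, which came last at 0. For *Mael* and *Gtsf1* both MII groups came last, and *Mael* had a gap between primary *in vitro* and MII *in vivo*. For *Tdrd1*, *Tdrkh* and *Pld6* both MII groups came first, and of these only *Tdrkh* had a gap, between MII *in vivo* and primary *in vitro*. *Mov10l1* (MII *in vitro* above primordial *in vitro*) and *Tdrd9* (primordial *in vivo* above primary *in vitro*) had 1 gap each.

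Of 24 other genes of the pathway, 20 were tested in the LCM libraries and 21 in the MII libraries. edgeR called 0 of them in each LCM comparison, beside 0% to 0.104% of all genes. In MII oocytes it called 1, beside 0.35% of all genes. This was *Ddx4* (vasa), the RNA helicase of germ cell granules. *Ddx4* had 373, 120 and 244 reads in MII oocytes *in vivo* (34.8, 13.4 and 23.9 TPM) and 2769, 3906 and 2661 reads *in vitro* (217, 368 and 271 TPM). The *in vitro* libraries were all above the *in vivo* libraries, and *Ddx4* was 11.7-fold higher *in vitro* (log2 fold change 3.55, SE 0.43, adjusted p = 0.00206), with an adjusted p of 4.83e-14 to 0.0411 over the alternatives. In small follicles it had 2954 to 15606 reads *in vivo* and 72 to 6114 reads *in vitro* and was not called. *Ddx4* thus differed in MII oocytes by more than the spread between libraries. Of the 9 genes tested beside it 0 were called, near the share of 0.35% over all genes.

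**Figure D4:**
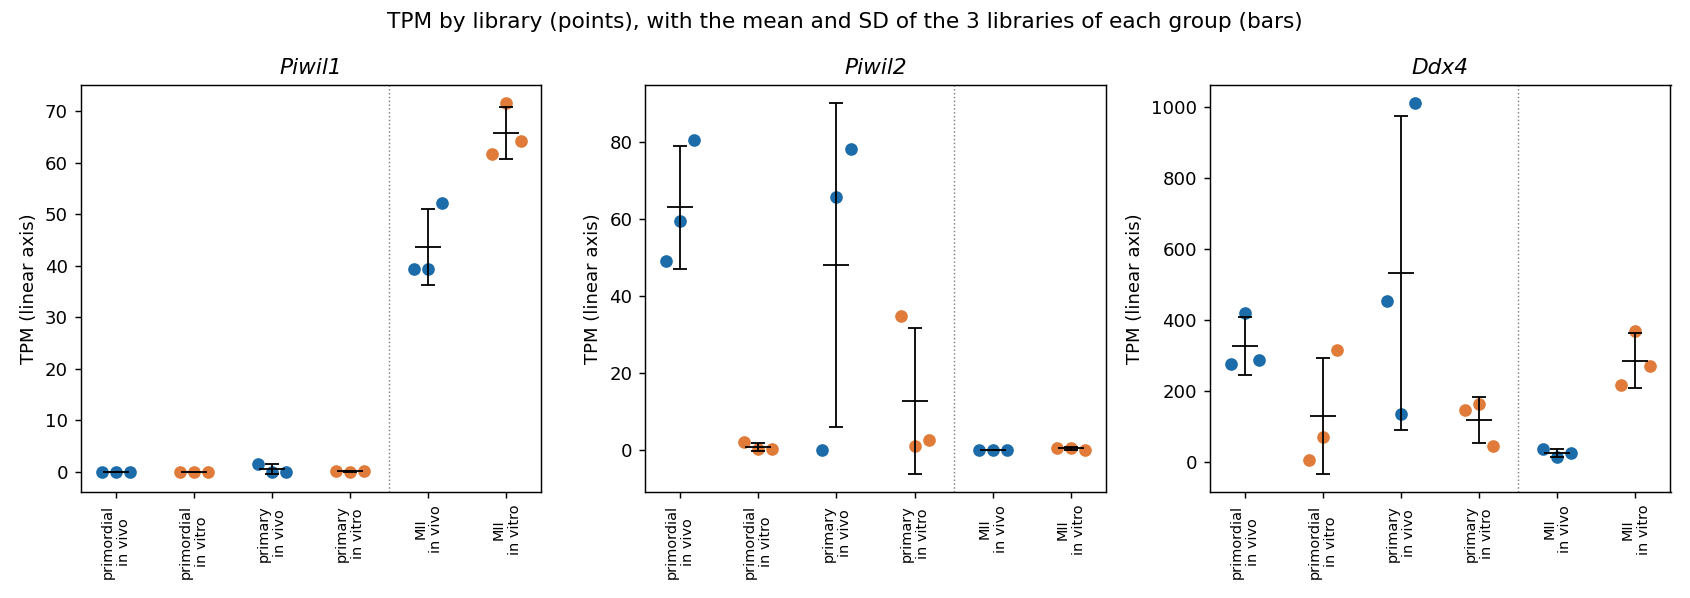
TPM (vertical, linear axes) of *Piwil1*, *Piwil2* and *Ddx4* in the 6 groups (horizontal), with 1 point per library and bars for the mean and SD of 3 libraries. In MII oocytes *Piwil1* stands at 39.3 to 52.2 TPM *in vivo* and 61.8 to 71.5 TPM *in vitro*, *Piwil2* is under 1 TPM, and *Ddx4* stands at 13.4 to 34.8 TPM *in vivo* and 217 to 368 TPM *in vitro*.

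The other two of the 24 genes with the most reads were *Hsp90aa1*, the chaperone that helps load small RNAs onto Argonautes, and *Tex19.1*, a germ cell gene that restrains retrotransposons. *Hsp90aa1* had 84.4 to 1184 TPM over the LCM libraries and 1201, 4273 and 3151 TPM in MII oocytes *in vivo* against 1285, 1189 and 1124 TPM *in vitro*, which overlapped (log2 fold change -1.13, SE 0.42, edgeR unadjusted p = 0.0192, adjusted p = 0.413). Without *in vivo* replicate 1, the lowest of its group, *Hsp90aa1* was called lower *in vitro* (log2 fold change -1.46, edgeR adjusted p = 0.026). *Tex19.1*, like *Piwil1*, was read mainly in MII oocytes, with 0 to 11 reads in the LCM libraries, 4349, 1391 and 1474 reads in MII oocytes *in vivo* and 2710, 4297 and 2973 reads *in vitro* (log2 fold change 0.33, SE 0.44, edgeR adjusted p = 0.856). The median log2 fold change of the tested genes among these 24 was 0.01 in oocytes from primordial follicles, -0.69 in oocytes from primary follicles and -0.29 in MII oocytes.

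The 10 genes of small interfering RNA and microRNA production and action (among them *Dicer1*, which cuts double-stranded RNA, and *Ago2*) gave 0 calls in each of the 6 comparisons of edgeR. The share of all genes called was 0% to 0.104% in the LCM comparisons and 0.35% in MII oocytes. Their summed level in oocytes from primordial follicles was 896 to 1346 TPM *in vivo* and 410 to 555 TPM *in vitro*, also without overlap. A lower sum *in vitro* at that stage was thus not found for the Piwi pathway genes described here alone, whereas the sums of the other pathway genes overlapped. In oocytes from primary follicles the sum of these small RNA genes was 531 to 966 TPM *in vivo* and 594 to 760 TPM *in vitro*, and in MII oocytes 64.2 to 95.4 TPM *in vivo* and 55.6 to 113 TPM *in vitro*.

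Markers of the oocyte and of other ovarian cells moved with the library type. *Gdf9*, a defining gene of the oocyte, was read in all 18 libraries, with 5 to 7061 reads in LCM and 42702 to 104999 reads in MII libraries, whereas *Bmp15* and *Oosp1* had at most 97 and 53 reads in LCM libraries. The sum of 15 oocyte markers was 260 to 1512 CPM in LCM and 8892 to 16825 CPM in MII libraries. In oocytes from primordial follicles it was 801, 542 and 522 CPM *in vivo* and 260, 1512 and 407 CPM *in vitro*. These ranges overlapped through *in vitro* replicate 2 alone, and the other *in vitro* libraries lay below all *in vivo* libraries. The sum of 13 matched granulosa and cumulus markers was 19.8 to 1316 CPM in LCM and 68.3 to 154 CPM in MII libraries, where the defining genes *Foxl2*, *Amhr2* and *Fst* were at 0. Of the 13, 5 *in vivo* and 8 *in vitro* had an MII library above 3 reads. For the 7 tested in MII oocytes, 5 log2 fold changes were positive and 2 negative, the largest that of *Inhba* (7.90, SE 1.91, edgeR adjusted p = 0.153). edgeR called 0 of these 7, beside 0.35% of all genes. The sum was 321 to 642 CPM in oocytes from primary follicles *in vivo* and 628 to 1316 CPM *in vitro*. The part of these cells in the levels above was not tested.

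The gene with the most reads of the 10, *Mael*, was compared with all 20648 genes by the mean absolute difference of log2 CPM (prior count 2, each gene centred on its mean) over the 18 libraries. The nearest genes were *Flii* (1.17), *Slc26a11* (1.19) and *Zfhx3* (1.199), against a median of 2.96 over all genes. The 18 libraries are of 2 library types, and the distance is a description over libraries that share them.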

How the data were processed

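The submitters' processing notes name Trim Galore 0.4.1, TopHat2, featureCounts and mm10, and the counts the authors deposited are reads per gene without normalization. Strand use in counting and the treatment of reads with several positions are not given in the sources used here. The authors also deposited TPM values, scaled for gene length and library size, which were used for levels. The identifiers of all 10 genes matched GENCODE M21. edgeR 4.0.16 (R 4.3.3) was run on genes with at least 10 reads in total (TMM, glmQLFit with robust = TRUE, glmQLFTest), the 12 LCM libraries in 1 fit and the 6 MII libraries in another, with Benjamini-Hochberg adjustment over all genes tested. The SE of an edgeR log2 fold change was computed as its absolute value divided by the square root of the test's F statistic. A fold against a group with no library above 3 reads was computed against 3 reads per library. CPM in the text, floors included, use TMM library sizes. Alternatives were DESeq2 1.42.0 with its defaults and, chosen after seeing the data, without its filters, limma 3.58.1 on log2 TPM (pseudocount 1 or 0.1), other scaling, filters on low counts, no fold threshold, a replicate block, fits of 2 groups only, and leaving out each library. The fits were tested on simulated data. The members and lists were chosen with earlier results of these data known. Named beside the 10 genes were, by rule, other pathway genes that were called, the 3 of them with the most reads, and the 3 genes most like *Mael*; marker, small RNA and overlapping genes were named as members of their lists. No pair of libraries was identical. Figures were drawn with matplotlib 3.10.9.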

Additional observations from a re-analysis of the deposited data

How the results depend on the processing

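Under edgeR, 0 of the 10 genes were called in any of the 6 comparisons with other scaling, other filters on low counts, no fold change threshold, the replicate block, fits of 2 groups or any 1 library left out, and limma on log2 TPM called 0 as well. The member count moved with DESeq2 only. In oocytes from primordial follicles DESeq2 called 1 (*Piwil2*) with its defaults, beside 9.3% of the genes to which it gave an adjusted p. Without its filters, an alternative chosen after seeing the data, it called 2 (*Piwil2*, *Pld6*), beside 1779 of the 15317 genes of the fit. That alternative also called 1 of the 10 genes between the stages *in vivo* (*Tdrkh*), beside 1492 of all genes. *In vitro* it called 1 (*Pld6*, on 1 read in 6 libraries), beside 1278 of all genes. The cause was not tested.

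The count over all genes moved more. For *in vitro* against *in vivo* growth of oocytes from primordial follicles it was 5, and 812 with DESeq2, 1779 without its filters, 9 in a fit of 2 groups, 1 with the replicate block, 0 without a filter, with filterByExpr or with limma on TPM, and 0 to 13 (without primary *in vivo* replicate 1) with 1 library left out. For oocytes from primary follicles it was 0, and 254 and 971 with DESeq2, 1 with DESeq2's size factors, 5 in a fit of 2 groups and 0 to 4 with 1 library left out (4 without primordial *in vivo* replicate 3 or *in vitro* replicate 1). Between the stages it was 8 *in vivo*, and 557 and 1492 with DESeq2, 0 without a filter, with filterByExpr, limma or the block, and 0 (without primordial *in vivo* replicate 1 or 2) to 11 with 1 library left out, and it was 0 *in vitro*, and 450 and 1278 with DESeq2 and 0 to 2 with 1 library left out. The interaction gave 16, and 554 and 1590 with DESeq2, 1 without a filter, 0 with filterByExpr, limma or the block, and 0 to 20 with 1 library left out, where the highest counts of both stage comparisons and of the interaction came without primary *in vivo* replicate 1. For MII oocytes it was 60, and 351 and 321 with DESeq2, 263 without a filter, 85 with the block, and 11 (without *in vitro* replicate 3) to 378 (without *in vivo* replicate 1) with 1 library left out.

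Whether the replicate numbers of the labels mark a pairing was not settled. Deviations of libraries with the same number correlated at -0.06 to 0.10 in LCM (18 pairs) and -0.03 to 0.02 in MII (3 pairs), and 3 of 12 and 2 of 6 libraries correlated best with their own number. The LCM pairs include *in vivo* with *in vitro* libraries, which came from different ovaries. Between primordial and primary oocytes *in vivo*, the same number gave 0.0084, 0.098 and 0.016. At this spread between libraries such values cannot exclude a pairing.

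Of the log2 fold changes given in the text, the called change of *Ddx4* in MII oocytes kept its sign and its call under every alternative. Among changes that were not called, 22 values turned in sign (9 under another setting and 13 with 1 library left out). With the replicate block these were *Mael* (0.51) and *Tdrd1* (0.15) in primordial oocytes and *Tdrkh* (-0.084) in MII oocytes, and with limma on TPM *Tdrkh* in MII oocytes (-0.12 and -0.14 at pseudocounts of 1 and 0.1) and *Tdrd9* in primary oocytes (0.038 at 0.1). *Tdrkh* in MII oocytes also turned with DESeq2 (-0.0046, with and without its filters) and with DESeq2's size factors (-0.0047). With 1 library left out, the values in primordial oocytes ran from -1.37 to 0.10 for *Mael*, -0.73 to 0.74 for *Tdrd1* and -3.33 to 0.18 for *Gtsf1*, and those of *Tdrd9* in primary oocytes from -1.78 to 0.73. Between the stages *in vivo*, *Piwil2* ran from -1.08 to 0.012. In MII oocytes *Mael* ran from -0.67 to 0.33, *Tdrkh* from -0.23 to 0.34 and *Gtsf1* from -0.88 to 0.086. *Hsp90aa1* in MII oocytes was called without *in vivo* replicate 1 (-1.46, adjusted p = 0.026). The cause was not tested.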
